A study of Homo sapiens with 2 samples.

Results

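The regions described here are the 100 kb stretches of the autosomes in which OCI-AML3 had far less DNA methylation than AML5 at CpG-poor sites. They were selected on the methylation values themselves. The autosomes were divided into bins of 100 kb, and the level of a bin was the mean methylation level of its CpG dinucleotides with at most 10 other CpGs within 500 bp and more than 5 reads in both lines. Bins with at least 50 such CpGs were kept. Those whose OCI-AML3 level lay below the AML5 level by 25 percentage points or more are called loss bins below. Loss means here a level lower than in AML5, since no earlier state of either line was measured. The rule took 2558 of 26390 bins (9.69%), 255.8 Mb in all, and because the difference between the lines chose them, that difference is given as a description without a test. The other 23832 bins are used only for comparison.

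Both are established human cell lines derived from acute myeloid leukemia (AML). OCI-AML3 is DNMT3A mutant and carries a heterozygous mutation at the arginine codon that is recurrently hit in this disease, whereas AML5, entered under the name OCI-AML5 in its sample record, has wild-type DNMT3A. Per the paper, both were cultured as their supplier specifies, and no treatment is stated. Each line gave 1 whole-genome bisulfite library, so a difference between the libraries cannot be told apart from a difference between the leukemias the lines came from, the cultures or the DNMT3A genotype. The methylation level of a CpG is the percentage of reads that called it methylated. The tables held 902802339 calls for OCI-AML3 and 894828667 for AML5, a mean of 32.9 and 32.5 calls per autosomal CpG. No expression values were used, so the AML label could be looked at only through promoters, given here as OCI-AML3 and then AML5. Those of the leukocyte genes SPI1 and PTPRC had low levels (11.5% and 11.5%, 19.9% and 20.8%). Those of the myeloid genes MPO (93.2% and 90.3%), CSF1R (78.9% and 91.0%) and LYZ (75.5% and 71.2%) had high levels, and CD33 had 36.5% and 32.3%. Myeloid promoters were thus not low as a set, and they do not settle the label.

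DNMT3A adds methyl groups to unmethylated CpGs, while DNMT1 copies the pattern of the parental strand after replication. Most of the genome outside CpG islands is methylated in normal cells. In many cultured and cancer cells, long gene-poor and late-replicating stretches keep only part of their methylation and are known as partially methylated domains, and isolated CpGs flanked by A or T are known to lose it most readily there. CpG islands at promoters mostly stay unmethylated, and in cancer cells some of them gain methylation inside these same domains.

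Single CpGs from 3 of the longest runs of adjacent loss bins show what the bin averages are made of. Each sequence below is a window on the forward strand of GRCh37, the hg19 build of the deposited positions, with the isolated CpG in capitals and no other CpG within 500 bp. Each was taken from the bin with the largest loss in its run as the CpG with the largest drop among those with at least 20 reads in both lines, so the drops are extreme by choice. All 3 lie in introns, in the order shown in GPC5, IQCM and PARD3B.
chr13:92953051-92953171: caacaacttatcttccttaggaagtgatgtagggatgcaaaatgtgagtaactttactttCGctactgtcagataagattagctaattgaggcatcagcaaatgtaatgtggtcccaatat
chr4:150355438-150355558: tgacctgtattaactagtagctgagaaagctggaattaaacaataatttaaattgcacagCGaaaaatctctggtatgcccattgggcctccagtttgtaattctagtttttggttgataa
chr2:205687762-205687882: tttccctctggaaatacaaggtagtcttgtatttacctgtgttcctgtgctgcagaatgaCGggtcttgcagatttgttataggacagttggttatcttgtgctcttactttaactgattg

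In the sequence from chromosome 13 the CpG was methylated in 10 of 27 reads (37.04%, Wilson 95% interval 21.5 to 55.8) in OCI-AML3 and 23 of 27 (85.2%, 67.5 to 94.1) in AML5. The CpG from chromosome 4 had 0 of 30 methylated reads in OCI-AML3, which allows a share of up to 10.0%, and 30 of 31 in AML5 (96.8%, 83.8 to 99.4). That from chromosome 2 had 0 of 31 in OCI-AML3, which allows up to 9.68%, and 22 of 22 in AML5. Intervals and limits cover counting error only, since a library without molecular identifiers can hold copies of 1 molecule. At 2 of these 3 CpGs no methylated read was seen in OCI-AML3, while nearly every read of AML5 was methylated.

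Across the 2558 loss bins OCI-AML3 had a median level of 41.4% (lower and upper quartiles 34.8 and 50.4) and AML5 of 79.6% (70.01 and 86.6). The median difference, OCI-AML3 minus AML5, was -32.8 percentage points, and it ran from -65.3 to -25.01 because the rule ended there. Over all 26390 bins the medians were 72.2% and 82.0% and the median difference -8.57 points. The 3 bins just inside the threshold differed by -25.019, -25.019 and -25.015 points and the 3 just outside it by -24.996, -24.996 and -24.993, so the edge of the group marks no gap in the data. When all calls of the loss bins were pooled, 43.8% of 21614849 calls were methylated in OCI-AML3 and 78.6% of 26723899 in AML5.

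**Figure D1:**
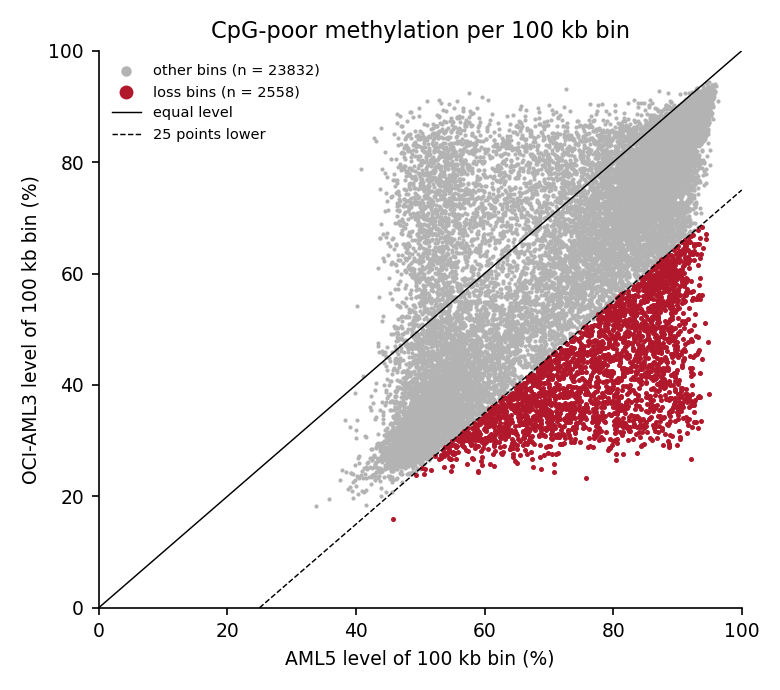
Level of each 100 kb bin in AML5 (x axis, percent) against OCI-AML3 (y axis, percent), 1 point per bin and 1 library per line. The solid line marks equal levels and the dashed line a level 25 points lower in OCI-AML3. The 2558 loss bins fill the area under the dashed line, from AML5 levels of 45.7% to 94.9%, without a gap between them and the other bins.

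The share of loss bins varied with the AML5 level. Of the bins with 50 to 60% methylation in AML5, 143 of 4854 were loss bins (2.95%), a share that was 20.9% at 60 to 70%, 21.7% at 70 to 80%, 11.8% at 80 to 90% and 4.19% at 90 to 100%. Loss bins thus came from stretches that were partly methylated in AML5 and from stretches that were highly methylated there, and 1920 of them had 70% or more in AML5. Low OCI-AML3 levels were more widespread than the loss bins. There were 7220 bins below 50% in OCI-AML3, and 1895 of these were loss bins, while 1623 were below 50% in both lines, of which the rule took 2. Among 1309 bins below 50% in OCI-AML3 and at 70% or more in AML5, 1257 met the rule, as these limits nearly require.

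The loss was not a uniform intermediate level at each CpG. Among the 853500 CpG-poor sites of the loss bins, 38.6% had a level below 20% in OCI-AML3 against 6.63% in AML5, 35.5% against 25.9% lay from 20 to 80%, and 26.0% against 67.5% lay above 80%. These sites chose the bins, so the values describe the loss and do not test it. In a two-sided Fisher's exact test of the reads at every CpG, adjusted over all 23598449 autosomal CpGs by the Benjamini-Hochberg method at 0.05, 14.8% of the autosomal CpGs had lower and 3.88% higher methylation in OCI-AML3. In the loss bins it was 39.4% and 2.27% of 1514856 CpGs, and nothing is read from the excess because the rule used this contrast. The test compares the reads of 2 libraries, not the genotypes.

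Loss bins lay next to one another. They formed 823 runs of adjacent bins, 332 of them single bins and 156 of 5 bins or more. The 156 runs held 1347 loss bins (52.7%), and 41 runs had 10 bins or more. Chromosome 4 carried 457 loss bins, 24.5% of its tested bins, and 14 of the 41 runs of 10 or more. Chromosomes 7 (15.2%), 3 (13.9%), 18 (12.6%) and 6 (11.3%) followed, while chromosome 20 had 6 loss bins (1.03%) and chromosome 16 had 9 (1.24%). The median loss of these bins lay between -28.4 points on chromosome 20 and -38.6 on chromosome 13, with chromosomes 4 (-34.2), 7 (-34.0) and 3 (-32.3) in between. The cut at 25 points narrows how far such medians can differ, and those of chromosomes 20 and 16 rest on few bins.

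The longest run spanned 40 bins, chr4:90300001-94300000, in which 11070 sites gave means of 36.2% (OCI-AML3) and 76.2% (AML5). Among its protein-coding genes were MMRN1, which encodes a carrier protein of platelets and endothelium, and CCSER1, a very long gene at a common fragile site. The levels of OCI-AML3 stayed between 28.3% and 60.1% throughout, whereas those of AML5 changed within the run. In the bin centred 0.95 Mb from the start the levels were 37.5% in OCI-AML3 and 91.0% in AML5. In the bin centred at 2.75 Mb they were 28.3% and 57.1%. OCI-AML3 was thus low along the whole run, and AML5 was highly methylated in its first part and partly methylated in its second part. On the left, OCI-AML3 fell over about 10 bins, from 84.3% at 0.65 Mb before the run to 40.2% at 0.55 Mb inside it, while AML5 read 92.9% and 88.1% at the same places. On the right, after 1 bin outside the rule, loss bins went on to 4.75 Mb from the start (42.8% in OCI-AML3 and 77.1% in AML5). The next bin, at 4.85 Mb, had 77.6% and 93.2%, so the change was abrupt there. The bin at 4.95 Mb was again a loss bin (62.7% and 89.5%).

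**Figure D2:**
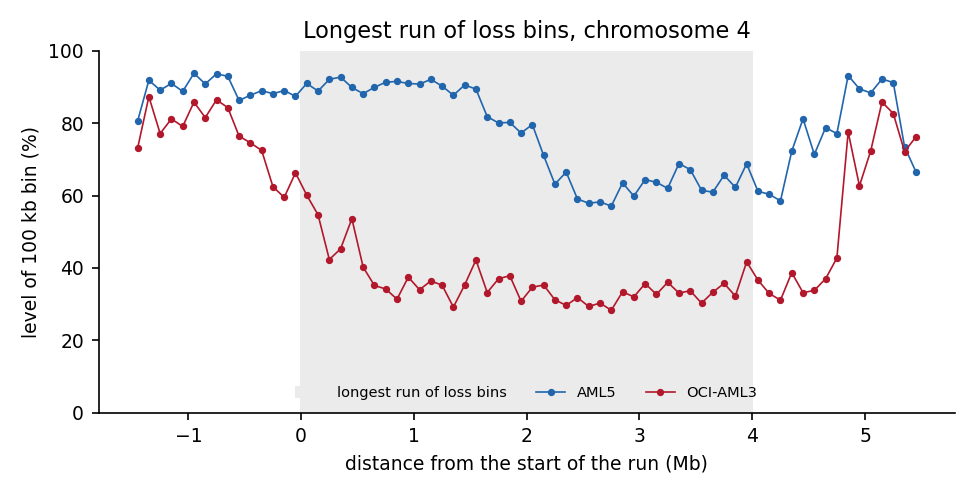
Level of each 100 kb bin (y axis, percent) along the longest run of loss bins and 1.5 Mb on either side, by distance from the start of the run (x axis, Mb), 1 point per bin and line. The shaded stretch is the run. The OCI-AML3 points lie between 28.3% and 60.1% inside it, and the AML5 points fall from about 91.0% at 0.95 Mb to 57.1% at 2.75 Mb.

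The run chr4:133600001-136400000 (28 bins) had 41.3% in OCI-AML3 and 76.0% in AML5, and its genes were the protocadherin gene PCDH10 and PABPC4L, which resembles the cytoplasmic poly(A)-binding proteins. The run chr13:92400001-94800000 (24 bins) had 37.04% and 80.9% and covered most of GPC5 and GPC6, neighbouring genes for glypicans, which are heparan sulfate proteoglycans of the cell surface. Of the runs with 20 bins, chr4:148600001-150600000 had 38.8% and 82.5% and held the mineralocorticoid receptor gene NR3C2. The run chr8:110400001-112400000 had 36.7% and 77.9%, and the run chr2:204800001-206800000, around the cell polarity gene PARD3B, had 40.6% and 81.7%. A further run of 20 bins, chr6:114400001-116400000, had a smaller mean difference, with 33.8% and 71.0%. Among the 12 longest runs the means spanned 33.2 to 41.3% in OCI-AML3 and 68.0 to 89.8% in AML5. Of the 12 longest runs the largest mean difference, -50.2 points, was in chr3:60400001-62100000 (17 bins, 39.6% and 89.8%), within the fragile-site gene FHIT and the receptor phosphatase gene PTPRG beside it, a run singled out after its values were seen.

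The largest loss of a single bin was at chr18:37000001-37100000, which contains no protein-coding gene and whose 293 sites averaged 26.7% (OCI-AML3) and 92.0% (AML5). Also among the 5 largest were chr18:7800001-7900000 (29.3% and 89.9%), inside PTPRM, a receptor tyrosine phosphatase gene, and chr4:91100001-91200000 in CCSER1 (31.4% and 91.5%). All 5 were at 89.9% or more in AML5, so they were stretches without partial methylation in that line.

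Inside the loss bins the loss was spread over nearly their whole length. Split into windows of 10 kb with at least 5 sites, the loss bins gave 25285 windows, of which 80.9% were lower in OCI-AML3 by 25 points or more, against 5.83% of 231121 windows in the other bins. In only 28 windows was OCI-AML3 not lower. Of 2546 loss bins with 5 or more windows, 2518 (98.9%) had every window lower in OCI-AML3, and 1594 had at least 8 in 10 windows lower by 25 points. In 77 fewer than 5 in 10 windows reached that difference. These windows hold the sites of the rule, so their lower levels follow in part from it.

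Across the edges of the runs the median level changed gradually in OCI-AML3 and little in AML5. Around both ends of the 156 runs of 5 or more bins, the median level of 10 kb windows centred 95 kb outside was 64.7% (OCI-AML3) and 84.1% (AML5). At 5 kb outside it was 50.5% and 80.8%, at 5 kb inside 47.1% and 79.9%, and at 95 kb inside 40.8% and 78.2%. The change of the OCI-AML3 median was thus spread over roughly 100 kb, the size of the bins, which limits how sharply an edge can be placed. A median over many ends on this grid cannot show whether single edges were gradual or sharp. The 1617 bins that touched a loss bin without being one had medians of 61.9% (OCI-AML3) and 80.6% (AML5) with a median difference of -19.1 points, and only 7 of them were not lower in OCI-AML3.

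**Figure D3:**
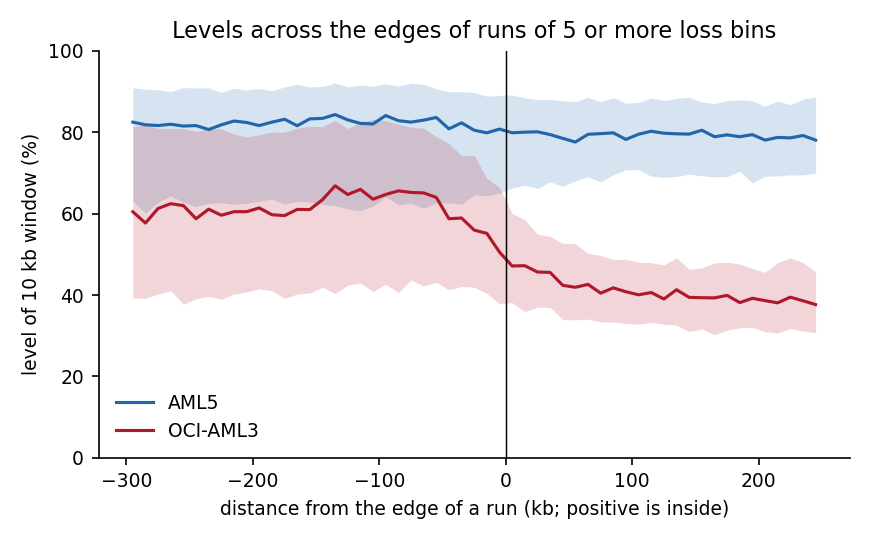
Level of 10 kb windows (y axis, percent) by distance from the ends of the 156 runs of 5 or more loss bins (x axis, kb, positive inside the run). Lines are medians over the run ends and shaded bands run from the lower to the upper quartile. The OCI-AML3 median drops from 64.7% at 95 kb outside to 40.8% at 95 kb inside, while that of AML5 reads 84.1% and 78.2%.

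Within the loss bins, the difference between the lines shrank as CpGs became denser and changed sign at the densest sites. CpGs with 0 to 2 others within 500 bp had means of 33.4% (OCI-AML3) and 73.3% (AML5) and differed by -39.8 points. With 3 to 5 others the difference was -36.97 points, and with 6 to 10 others it was -32.7 points. These 3 classes were used by the rule. At the sites it did not use, the difference was -25.1 points with 11 to 20 others and -14.7 with 21 to 50. At the 80756 CpGs with over 50 others, the density of CpG islands, OCI-AML3 was higher, with 44.3% against 34.6%, a difference of 9.62 points. At those CpGs 24.6% of sites were higher in OCI-AML3 by 25 points and 8.62% lower.

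In the other bins the same 6 classes differed by -7.06, -7.26, -7.10, -6.52, -6.03 and -2.98 points, so there the difference kept its sign and was smallest at the densest sites. Over all sites with more than 10 others, which the rule left out, the loss bins averaged 59.4% in OCI-AML3 and 77.3% in AML5, which differed by -17.9 points against -5.86 points in the other bins. Neighbouring sites share reads and position, and 1 library per line gives no measure of how far such means vary between cultures.

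**Figure D4:**
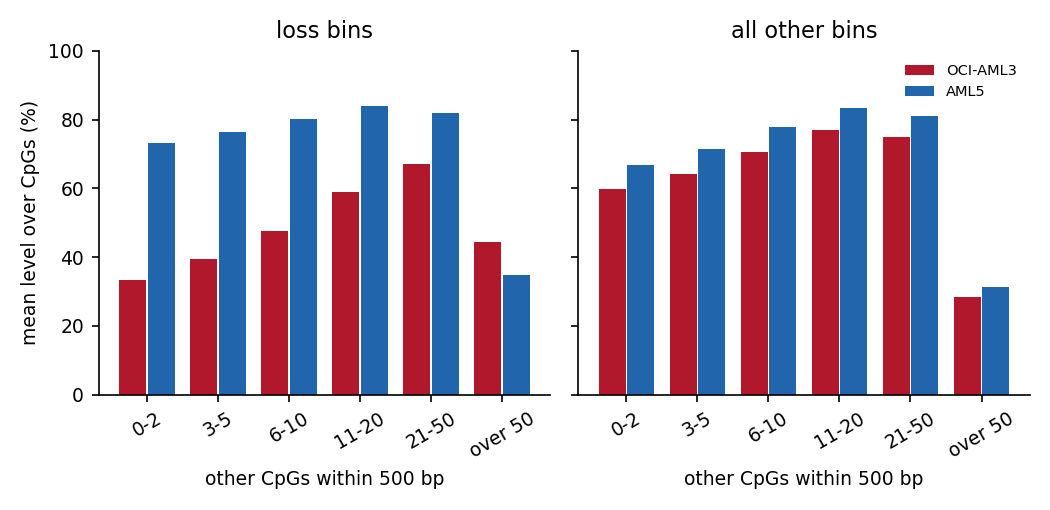
Mean methylation level over CpGs (y axis, percent, from 0) by the number of other CpGs within 500 bp (x axis), for OCI-AML3 (red) and AML5 (blue), in loss bins (left) and all other bins (right). Bars have no error bars because each line has 1 library. In loss bins OCI-AML3 is lower by 39.8 points at the sparsest sites and higher by 9.62 points at the densest.

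The bases next to an isolated CpG went with its level in both lines. Among loss-bin CpGs with 0 to 2 others, those with A or T on both sides had mean levels of 20.6% in OCI-AML3 and 64.3% in AML5. With A or T on 1 side the means were 38.4% and 77.7%, and with G or C on both sides 53.6% and 83.9%. The differences were -43.7, -39.3 and -30.4 points. In the other bins they were -7.50, -7.10 and -5.72 points, so the order of the 3 classes was the same with a far smaller range. Of the 34620 loss-bin CpGs with A or T on both sides, 67.6% were below 20% in OCI-AML3 and 15.8% in AML5. The 3 sequences shown above have G or C on 1 side of the CpG, since they were chosen for isolation and drop and not for flanking bases.

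The difference between the lines was alike over genic positions at CpG-poor sites, while at CpG-dense sites exons stood apart. The CpG-poor sites of loss bins differed by -32.0 points in exons, -35.9 in introns and -34.3 between genes. The CpG-dense sites differed by -19.9 points in introns, -18.9 between genes and -3.05 in exons of protein-coding genes, which include the first exons in CpG islands. Of the 56965 CpG-dense exonic sites, 20.2% were lower and 15.6% higher in OCI-AML3 by 25 points or more. In the other bins CpG-dense exonic sites differed by -4.37 points. Positions were not compared at like density. Within the CpG-dense class of loss bins the difference went from -25.1 points with 11 to 20 others to 9.62 with over 50. The parts of position and density were therefore not told apart.

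Loss bins were poor in CpGs, in GC and in promoters. They held a median of 634 CpGs against 845 in the other bins, their median GC content was 37.6% against 40.1%, and 75.9% of them contained no transcription start site (TSS) of a protein-coding gene, against 61.2%. The mean number of such TSSs was 0.346 per loss bin and 0.714 per other bin. The 5979 other bins whose AML5 level lay within the quartiles of the loss bins were further away, with 976 CpGs, 42.1% GC and 0.928 TSSs. In 4 classes of like size by GC content, from lowest to highest, 17.1%, 11.9%, 6.53% and 3.305% of bins were loss bins. These shares describe regions that are not independent of each other, and the selection itself favoured CpG-poor sequence through the sites it counted.

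The relation to gene bodies was not one of gene deserts alone. Of the bins without a protein-coding gene body 11.8% were loss bins, of those covered to at most 50% it was 9.04%, of those covered in part beyond that 5.43%, and of those wholly covered 12.2%. A loss bin was therefore about as frequent in a bin that lay fully within genes as in one without any. The 684 wholly covered loss bins lay in long genes: the longest gene in them had a median length of 503 kb, against 402 kb in the other wholly covered bins, and in 51.5% against 39.3% it exceeded 500 kb. Loss bins without a gene body had median levels of 37.7% in OCI-AML3 and 75.2% in AML5, and wholly covered ones 40.8% and 82.5%.

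Read depth moved with the selection to some extent. The median number of reads per site in loss bins was 23.6 in OCI-AML3 and 29.9 in AML5, against 27.3 and 31.2 in the other bins, and the median ratio of reads, OCI-AML3 over AML5, was 0.785 against 0.859. Among bins whose GC content lay within the quartiles of the loss bins the ratio was 0.778 in loss bins and 0.820 in others. The part of depth or DNA copy number in the loss was not tested. Without bins of unusual depth in either line, 2546 loss bins were counted.

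Protein-coding genes that lay in loss bins were less methylated along the gene body in OCI-AML3 than in AML5. For 435 genes with over 80% of their length in loss bins and 50 or more CpG-poor sites in the body, the bodies had medians of 46.3% (OCI-AML3) and 84.6% (AML5). The body was lower by 25 points or more in 393 of them and not lower in 0, but these bodies are made of the sites that chose the bins. Among the 5 longest genes were CCSER1 (34.9% in OCI-AML3 and 85.5% in AML5), GPC5 (38.3% and 75.4%), the neurodevelopmental gene AUTS2 (34.6% and 65.6%) and PARD3B (39.9% and 83.9%). Their OCI-AML3 bodies lay within a few points of each other, while their AML5 bodies spanned 65.6 to 85.5%.

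The largest decreases of a body were in ZNF737 (30.6% in OCI-AML3 and 93.2% in AML5), HOXB3 (32.3% and 91.1%), ZNF492 (35.1% and 93.8%), ZNF606 (29.3% and 88.0%) and ZNF681 (29.6% and 87.6%), genes that were singled out after their values were seen. HOXB3 encodes a homeobox factor of body patterning and blood progenitors, and the 4 ZNF genes encode zinc finger proteins of a family with many similar copies on chromosome 19. At the other end, 13 genes in loss bins had bodies lower in OCI-AML3 by under 10 points. The smallest decreases were in KBTBD8 (89.9% and 92.0%), GORAB (87.7% and 90.7%), SLC25A46 (91.4% and 94.7%), TRAF6 (80.1% and 84.3%) and ZNF175 (85.0% and 89.3%), also singled out afterwards. The first 3 encode a ubiquitin ligase adaptor, a Golgi protein and a mitochondrial outer membrane protein, and TRAF6 a ubiquitin ligase of Toll-like and interleukin-1 receptor signalling. All 5 were 12.9 to 27.0 kb long, a length that ZNF681 (19.7 kb) and ZNF606 (26.3 kb), with large decreases, shared, and their promoters had levels of 7.64 to 18.3% in OCI-AML3. EBAG9, in the run on chromosome 8, was a gene of the same kind, with a body of 89.5% in OCI-AML3 and 93.9% in AML5 although SYBU beside it had 39.0% and 78.4%. Single gene bodies thus had high methylation in OCI-AML3 inside bins of loss.

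Most promoters in loss bins were lower in OCI-AML3, but they did not all share that direction. TSSs of 886 of 17896 protein-coding genes fell in loss bins (4.95%), and 860 of these genes had at least 10 measured CpGs within 2000 bp of their most upstream TSS, which need not be the start in use in these cells. Of the 860 promoters, 590 were lower in OCI-AML3, and the median difference was -9.02 points. In the other bins 14320 of 16790 promoters were lower, with a median difference of -4.51 points. In loss bins 305 were lower by over 20 points (35.5%), where 8.7% of all 17650 promoters were. There 81 were higher by over 20 points (9.42%), where 1.75% of all promoters were. The promoter windows include CpG-poor sites that the rule used, so the decreases are in part its own. The increases run against the direction of the rule.

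The number of CpGs in the window went with the direction. Among 320 loss-bin promoters with under 50 CpGs, 259 were lower by over 20 points and the median difference was -30.3 points, against -8.67 points for such promoters elsewhere. Among 347 with at least 50 but fewer than 150 CpGs the median difference was -2.37 points, with 42 lower and 36 higher by over 20 points. Among the 193 with 150 CpGs or more it was 4.89 points, 43 were higher by over 20 points and 4 lower. Elsewhere 5665 promoters with 150 CpGs or more had a median difference of -3.27 points and 4656 of them were lower in OCI-AML3, while 61 of the 193 in loss bins were. No test was made, since promoters of 2 libraries are not replicates.

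The opposite directions met in the same genes. There were 87 genes with over 80% of their length in loss bins and a promoter of 150 or more CpGs. Of these, 81 had a body lower by 25 points or more, which follows largely from the rule, as it used these sites. In 61 of these 81 the promoter was higher in OCI-AML3, in 26 by over 20 points. Such promoters were mostly higher in loss bins in any case: of all 193 with 150 or more CpGs, 61 were lower and 43 higher by over 20 points. GPC6 had 78.0% of its length in loss bins, so it was not among the 87 genes, but it showed the same contrast. Its promoter of 166 CpGs was methylated to 67.8% in OCI-AML3 and 7.79% in AML5, while its body had 48.5% and 85.6%. CCSER1 was alike, with 71.0% and 11.7% at the promoter and 34.9% and 85.5% in the body. In both genes the promoter was the more methylated part in OCI-AML3 and the body in AML5. The promoter of NR3C2 had 46.4% and 3.999%, and its body 36.8% and 89.8%. KCNV1, a modifier subunit of voltage-gated potassium channels, had 67.7% and 27.1% at the promoter and 47.6% and 87.6% in the body. Its promoter had 126 CpGs and its body only 27 sites, so it was not among the 87 genes either. Also among the 5 largest promoter increases were MICU3, a regulator of mitochondrial calcium uptake (78.6% and 23.1%), and RUNDC3B, which encodes a RUN domain protein (77.1% and 22.1%).

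**Figure D5:**
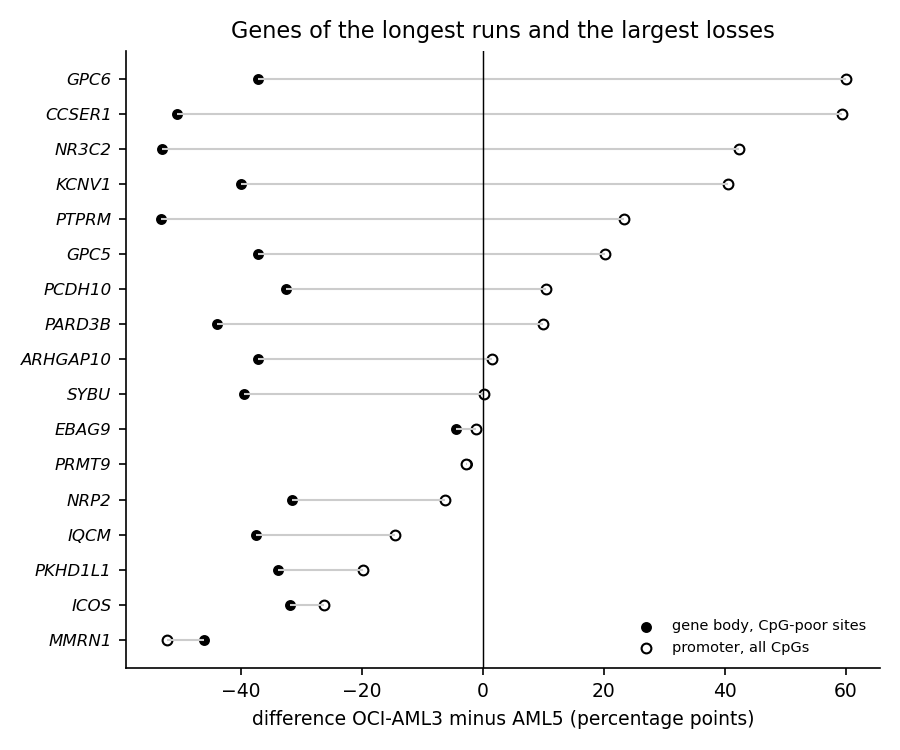
Difference in methylation, OCI-AML3 minus AML5 (x axis, percentage points), of the gene body at CpG-poor sites (filled) and of the promoter over all CpGs (open) for 17 genes of the 6 longest runs and the 5 largest losses, with 1 library per line and no error bars. PABPC4L is left out because its body had 3 sites. The bodies lie at -31.4 points or lower in all but EBAG9 and PRMT9, whereas promoters range from -52.1 points in MMRN1 to 59.98 in GPC6.

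Promoters with few CpGs were mostly lower in OCI-AML3, as their surroundings were. The largest decrease was at PDE1A, which encodes a calmodulin-dependent phosphodiesterase, whose 14 CpGs averaged 13.2% (OCI-AML3) and 85.0% (AML5). HBB, the beta-globin gene, had 26.9% and 96.8% over 14 CpGs with a mean of only 12.3 reads each in OCI-AML3. Its window was set at the most upstream annotated start and need not hold the promoter in use. MME, the gene of neprilysin (CD10), had 25.6% and 92.8% over 20 CpGs. ZBED2, a zinc finger gene, had 22.97% and 88.3% over 30 CpGs. Of the 8 largest decreases, 4 were olfactory receptor promoters: OR8G5 (15.9% and 83.0%), OR6A2 (16.9% and 82.9%), OR8G1 (27.3% and 92.5%) and OR5P3 (16.3% and 77.8%). All 8 were at 77.8% or more in AML5 and had 10 to 30 CpGs. MMRN1 (38.9% and 91.1%) and ICOS, the T-cell costimulatory receptor gene (64.8% and 91.0%), were genes of this kind in the longest runs.

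Few promoters in loss bins were unmethylated in both lines, with 21 of 860 below 10% in both (2.44%), against 7.80% of promoters elsewhere. Those with most CpGs were IGF1R, the receptor of insulin-like growth factor 1 (387 CpGs, 2.93% in OCI-AML3 and 0.190% in AML5), ARHGAP21, a GTPase-activating protein (7.42% and 4.63%), NTNG2, a netrin of axon guidance (7.23% and 6.81%), NOG, the secreted BMP antagonist noggin (4.04% and 3.41%), and PPM1L, a protein phosphatase (8.95% and 2.09%). All 5 were picked among promoters below 10% in both lines, so their low levels inside bins of loss follow from the choice.

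Gene families differed in how many of their TSSs lay in loss bins, beside the 4.95% of all genes. Clustered genes share bins, so the counts are not independent. Of 39 myeloid lineage genes with a TSS in a tested bin, only KIT, the stem cell factor receptor gene, lay in a loss bin, and its promoter had 22.5% in OCI-AML3 and 24.7% in AML5. Of 28 lymphoid and erythroid genes, 4 did, the globin genes HBB, HBD, HBG1 and HBG2 of chromosome 11, all with windows lower by over 20 points. The window of HBG2 was set at a far upstream annotated start, at chr11:5524835-5528835, and is not that of the gamma-globin promoter. Those of HBB (chr11:5248625-5252625) and HBD (chr11:5262887-5266887) were also set at the most upstream annotated start. They need not hold the promoters in use. HBD had 35.2% and 87.7%, and HBG1 had 44.1% and 82.2%. Among 12 genes of the DNA methylation machinery, ZFP57, a zinc finger gene that maintains imprints, was in a loss bin, with a promoter of 85.1% in OCI-AML3 and 70.9% in AML5.

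Olfactory receptors had 87 of 397 TSSs in loss bins (21.9%), and 76 of their 84 promoters with a value were lower by over 20 points. Most of the loss-bin promoters with under 50 CpGs were lower to this extent (259 of 320, 80.9%), so the counts of lower promoters are to be read beside that share. The UGT enzymes, which conjugate drugs and bilirubin with glucuronic acid, had 15 of 20, with 11 of 13 promoters lower, among them UGT2B28 (33.0% in OCI-AML3 and 77.3% in AML5) and UGT1A7 (55.1% and 90.2%). They lie in 2 clusters, and the UGT1A genes share their later exons. Keratin genes had 6 of 55, all lower by over 20 points, as in KRT4 (43.9% and 79.7%) and KRT20 (52.7% and 87.6%), and keratin-associated protein genes had 1 of 94. The giant fragile-site genes had 8 of 26 (30.8%), whose promoters differed by a median of 11.9 points, with 2 higher by over 20 and 0 lower. Near-identical copies within the receptor, UGT and zinc finger families make the placement of their reads less certain.

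ZNF genes had 35 of 476 TSSs in loss bins (7.35%), with a median promoter difference of 13.95 points and 10 promoters higher by over 20 points. The 1 that was lower by over 20 points was ZNF486 (54.0% in OCI-AML3 and 83.2% in AML5). Potassium channel genes had 9 of 78, with 2 promoters higher and 1 lower by over 20 points, the latter KCNA5 (58.8% and 80.3%). The 2 cadherin genes in loss bins went opposite ways, with 43.6% in OCI-AML3 and 67.0% in AML5 at CDH18 (20 CpGs) and 75.9% and 21.6% at CDH7 (148 CpGs). The GABA and glutamate receptor list had 2 of 38, among them GABRP (72.1% in OCI-AML3 and 89.5% in AML5). HOX genes had 7 of 39, all of the HOXB cluster on chromosome 17. HOXB5 was the single one lower by over 20 points, with 17.3% (OCI-AML3) and 61.2% (AML5) at 184 CpGs, a dense promoter that went with its surroundings.

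Clustered protocadherins (0 of 53) and type I interferon genes (0 of 17) had no TSS in a loss bin. Membership by TSS rests on the 100 kb grid and on the AML5 level, which has to be high enough for a loss of 25 points to be possible.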

How the data were processed

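The authors made paired-end bisulfite libraries from genomic DNA of each line and aligned the reads to hg19 with Bismark and, per the submitters' processing notes, Bowtie 0.12.8. The deposited tables give, for every CpG, the raw count of reads calling it methylated and the raw count calling it unmethylated, without normalization. Removal of duplicate reads is not given in the sources used here. The column of methylated counts was settled from mitochondrial DNA, where it held 0.168% and 0.101% of calls, and all 26752702 autosomal positions matched a CG of GRCh37. The 902802339 and 894828667 calls limit precision to counting error, with 1 library per line.

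Levels, bins and runs were computed as the report states, with 2433 autosomal bins below the site minimum left out. Genes were protein-coding genes of a GENCODE release lifted to GRCh37, and promoters reached 2000 bp to each side of their most upstream TSS. Fisher's exact test was two-sided with Benjamini-Hochberg adjustment. The scripts were tested on simulated data and used numba 0.67.0, pandas 2.3.3, scipy 1.17.1, matplotlib 3.10.9 and numpy 2.4.6 under Python 3.11.15.

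The loss bins and the gene lists were chosen with earlier results of these data known. Named genes were the up to 4 genes with the longest overlap in each of the 6 longest runs, up to 2 in each of the 5 bins with the largest loss, the 8 promoters with the largest decrease, the 5 with the largest increase and the 5 with most CpGs among those under 10% in both lines, up to 3 per gene list, and the 5 longest genes with over 80% of their length in loss bins. Genes named beyond this rule are given as singled out afterwards. Some genes and sites that meet the rules are not reported here. Alternatives covered the read and site minimums, CpG density, bin size and offset, the threshold, depth, averaging, the promoter window and the adjustment.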

Additional observations from a re-analysis of the deposited data

How the results depend on the processing

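No paired analysis was possible because each line has 1 library, and leaving out a library leaves no comparison. The number of loss bins followed the bin size and the threshold: 5338 bins of 50 kb (266.9 Mb), 1217 bins of 200 kb (243.4 Mb), 4689 at a drop of 20 points and 1643 at a drop of 30 points, against 2558 (255.8 Mb). Under the other 10 alternatives it was 2101 to 2916, the lowest without chromosome 4. The median difference of -32.8 points was -32.96 over pooled calls, -32.97 with 50 kb bins, -32.17 with 200 kb bins, -32.91 with shifted bins, -32.88 without bins of unusual depth and -32.58 without chromosome 4. Leaving out chromosome 4 and a minimum of 20 reads were chosen after seeing the data. Runs numbered 693 when joined across 1 bin and 825 with shifted bins, against 823. At CpG-dense sites the difference of -17.9 points was -17.68 with at least 10 reads and -18.42 over pooled calls, and it reversed to 9.62 points at sites with more than 50 other CpGs. The 305 promoters lower by over 20 points were 204 to 274 under the alternatives. With Bonferroni in place of Benjamini-Hochberg adjustment, 154160 CpGs of loss bins passed the Fisher test, against 630689, a change that follows from the stricter adjustment.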

Other observations

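The bins that went the other way give a measure of scale. Methylation was higher in OCI-AML3 by 25 points or more in 458 bins, with median levels of 82.0% in OCI-AML3 and 52.0% in AML5. Like the loss bins they were poor in CpGs (median 594 per bin) and GC (36.5%), and 94.1% of them contained no protein-coding TSS, against 75.9% of loss bins. Of them 68.8% contained no protein-coding gene body, against 41.3% of loss bins.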
